A study of Homo sapiens with 6 samples.

Results

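The C/EBP factors were followed in Huh7, a human liver cancer cell line, with and without knockdown of TRIM15, an E3 ubiquitin ligase. The 4 genes CEBPA, CEBPB, CEBPD and CEBPG were taken by gene name, 4 of 58735 gene rows in the deposited table. They were chosen with earlier results of these data known. The table's C/EBP family also holds CEBPE, which was listed at 0 in every library and is not among the 4. RNA sequencing covered 6 libraries, 3 from cells with a control short hairpin RNA (shcontrol) and 3 from cells with a hairpin against TRIM15 (shTRIM15). The cells of both groups grew in RPMI-1640 with 10% fetal bovine serum. The labels name no drug, do not say how many hairpins were used, and do not say whether libraries came from separate cultures, so p-values measure the spread between these libraries, which may be technical. Each library held 17332508 to 19556855 reads assigned to genes, and levels are given as FPKM, which divides reads by gene length and library size. TRIM15 itself read 5.17, 5.09 and 4.88 FPKM in control against 3.23, 2.11 and 2.51 in knockdown, a mean of 51.8% of control (log2 fold change -0.75, limma adjusted p = 0.00416), so part of the transcript remained.

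C/EBP proteins are transcription factors with a basic DNA-binding region and a leucine zipper, through which they pair with each other or with related factors. In liver, C/EBPα is known for hepatocyte differentiation, metabolic genes and growth arrest. C/EBPβ and C/EBPδ are known as mediators of the acute phase response to interleukin-6 and interleukin-1. C/EBPγ is a short protein without a classical activation domain that pairs with other C/EBPs and with ATF4, which drives genes of amino acid shortage.

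The CEBPA promoter is shown because CEBPA was the member that changed and because a divergent transcript, CEBPA-DT, starts on the other side of it. The windows run from 250 bases before the RefSeq start to 50 from it on GRCh38.p14, and positions count from the start base as 0. The CEBPA window lies at chr19:33302485-33302784 on the minus strand. Capitals mark 1 TTGCG (the first bases of the C/EBP palindrome TTGCGCAA) at -182, 1 TATAAA at -30 and 2 GGGCGG motifs, which are letters bound by Sp and KLF factors, at -239 and, on the opposite strand, at -133.

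CEBPA: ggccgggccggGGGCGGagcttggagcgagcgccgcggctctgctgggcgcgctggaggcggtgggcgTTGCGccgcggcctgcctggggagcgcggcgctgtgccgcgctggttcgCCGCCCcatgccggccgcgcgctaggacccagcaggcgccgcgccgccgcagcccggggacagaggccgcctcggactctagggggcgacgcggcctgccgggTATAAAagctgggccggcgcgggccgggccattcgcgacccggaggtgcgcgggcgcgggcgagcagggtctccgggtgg

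The CEBPA-DT window on the plus strand shares 214 of its 300 bases with it. Outside the shared stretch it holds the E-box CACGTG, shown in capitals at chr19:33302782-33302821.

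CEBPA-DT: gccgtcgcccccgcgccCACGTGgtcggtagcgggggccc

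A window of CEBPG holds TGATGCAA, a match to TGATGNAA, the form of a joint ATF4 and C/EBP site, at chr19:33374051-33374098. A window of CEBPB holds TGACG, the first bases of a CREB and ATF site, followed by TATAAA at chr20:50190753-50190832, both on the plus strand. Between them lies a GGGCGG match on the opposite strand, at -36, which is left in lower case. These stretches are shown because TGATGNAA and TGACG are letters that ATF and CREB partners of C/EBPs bind.

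CEBPG: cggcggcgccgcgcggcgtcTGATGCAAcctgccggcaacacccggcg

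CEBPB: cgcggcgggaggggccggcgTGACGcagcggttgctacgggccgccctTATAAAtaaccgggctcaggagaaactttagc

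Both strands were searched. Of 35116 such windows of all genes, 19.8% held TTGCG, 11.5% TATAAA, 45.0% GGGCGG, 7.26% CACGTG, 24.6% TGACG and 3.62% TGATGNAA. CCAAT, in 34.6% of windows, was searched as well and matched in windows of CEBPB and CEBPG. These matches, and further GGGCGG matches in windows of CEBPB and CEBPG, are not marked in the stretches shown. The full palindrome TTGCGCAA was in 0.151% of all windows and in no window of CEBPA, CEBPB or CEBPG searched. A match describes the letters, not binding.

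CEBPD was the most abundant of the 4 transcripts and CEBPA the next. Over all 6 libraries the means were 133.6 FPKM for CEBPD, 63.5 for CEBPA, 29.5 for CEBPG and 25.8 for CEBPB. Among 984 tested genes that the deposited table assigns to a transcription factor family, CEBPD ranked 7 and CEBPA 18, followed by CEBPG at 53 and CEBPB at 63. CEBPG and CEBPB were closest, but within each of the 6 libraries CEBPG was above CEBPB. All 4 members passed the filter on low values.

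Of the 4 members, CEBPA was lower in the knockdown and 0 were higher by limma. CEBPD was higher at an unadjusted limma p of 0.0110 and by voom, limma's model for read counts. CEBPG was lower at an unadjusted limma p of 0.0452 and was not called by voom. Across all 14847 genes tested, 19.0% passed the threshold of adjusted p under 0.05, with 10.1% lower and 8.93% higher in the knockdown. Voom called 4182 genes, 1822 lower and 2360 higher, so the balance of directions turned with this fit. Voom also scaled libraries by the summed reads of the tested genes, not by the library sizes behind FPKM. The median log2 fold change of all genes tested was 0.0235 with voom and 0.00143 with limma on FPKM. The part of scaling in this turn was not tested. In 3 of the 4 members the groups did not overlap, against 37.8% of all genes tested, so non-overlap alone is common in this table.

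CEBPA, the differentiation factor, fell by 22.1% in mean level. The gene (ENSG00000245848) lies on chromosome 19 of GRCh38. It read 74.9, 72.3 and 67.1 FPKM in control and 55.2, 55.3 and 56.5 in knockdown. Each knockdown library lay below each control library, and the control libraries were the more spread. The means were 71.4 ± 3.94 and 55.6 ± 0.700 FPKM (SD, n = 3), so the knockdown mean was 77.9% of control. The SD was 5.51% of the mean in control, where counting alone gives 1.72%. In knockdown it was 1.26%, below the 1.91% that counting alone gives. On the log2(FPKM + 1) scale the fold change was -0.35 (SE 0.0395, 95% interval -0.45 to -0.26), with a limma adjusted p of 0.00171. The two-sided exact permutation test of the means gave p = 0.1, the smallest possible with 3 libraries a group. These values rest on 3560, 3359 and 3206 reads in control and 2738, 2876 and 2607 in knockdown. The 95% Poisson interval of the lowest control count, 3096 to 3319, lay above that of the highest knockdown count, 2772 to 2983, counting error only. In a bulk sample fewer cells with CEBPA and less CEBPA RNA per cell cannot be told apart.

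CEBPD, one of the acute phase factors, lay slightly higher in the knockdown without passing the threshold. The gene (ENSG00000221869) lies on chromosome 8, 47736909 to 47739086, minus strand. Its values were 130.6, 127.2 and 123.8 FPKM in control and 137.9, 134.0 and 148.2 in knockdown libraries. The groups did not overlap, but the gap between the highest control and the lowest knockdown library was smaller than the spread within the knockdown group, where replicate 3 stood highest. The means were 127.2 ± 3.41 and 140.02 ± 7.36 FPKM (SD, n = 3), 110% of control, with a log2 fold change of 0.14 (SE 0.0398, 95% interval 0.04 to 0.23; limma adjusted p = 0.0551). With voom on whole reads it had a log2 fold change of 0.16 and adjusted p = 1.47e-05, so the call depended on the fit used. Without knockdown replicate 2 it also passed (0.17, limma adjusted p = 0.0445), and with a filter of 1 FPKM (adjusted p = 0.0436) and quantile scaling (0.0366).

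CEBPB, the other acute phase factor, showed no difference beyond its spread. The gene (ENSG00000172216) lies on chromosome 20, 50190734 to 50192689, plus strand. It was at 24.8, 28.2 and 25.0 FPKM in control and 25.6, 25.2 and 25.7 in knockdown. Control replicate 2 stood above the other libraries, which lay close together. The log2 fold change was -0.03 (SE 0.0492, 95% interval -0.14 to 0.09; limma adjusted p = 0.754), and it became 0.03 without control replicate 2. The interval runs from 0.905 to 1.06 times control. CEBPB had the fewest reads of the family, 878 to 975 per library, for which counting alone gives a coefficient of variation of 3.31% in control, against 7.38% observed. In knockdown, counting gives 3.27% and 1.10% was observed.

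CEBPG (ENSG00000153879; chromosome 19, 33373330 to 33382686, plus strand), the partner of ATF4, did not pass the test. It was at 29.5, 29.9 and 31.7 FPKM in control and 28.6, 28.8 and 28.7 in knockdown libraries. The knockdown values were all below the control values, by little. The log2 fold change was -0.08 (SE 0.0315, 95% interval -0.15 to -0.00217), and the limma adjusted p was 0.142. The spread of the knockdown libraries, 0.385% of their mean, was below the 2.05% that counting alone gives.

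**Figure D1:**
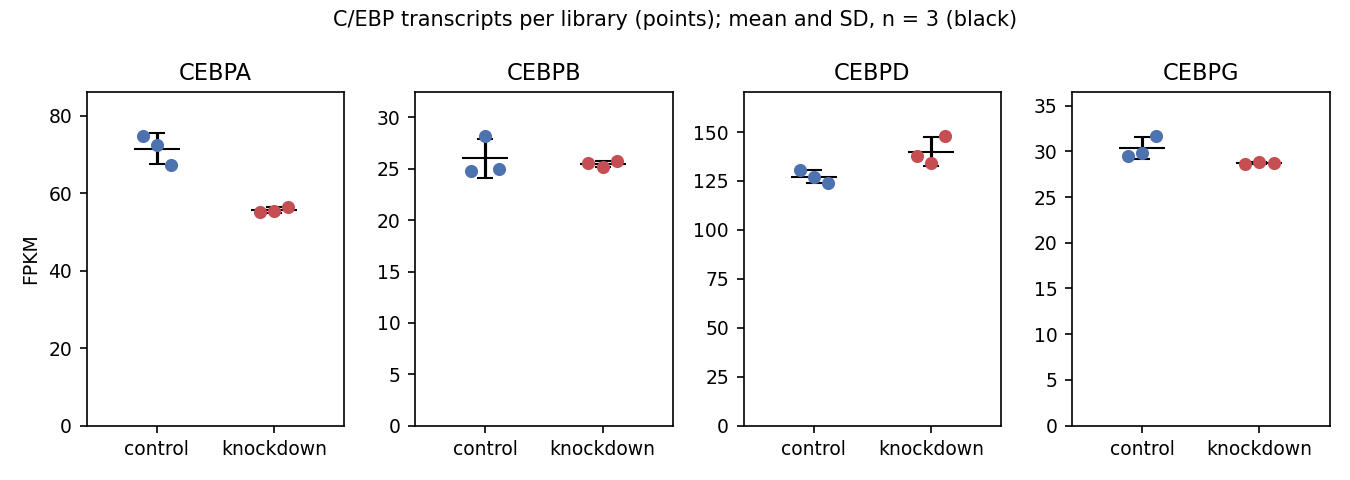
FPKM of each C/EBP gene (vertical axes, each from 0) in the 3 control and 3 knockdown libraries (points), with mean and SD in black. CEBPA lies at 67.1 to 74.9 in control and 55.2 to 56.5 in knockdown, while the groups of CEBPB overlap.

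CEBPA made up a smaller share of the family's transcripts in every knockdown library than in any control library, and CEBPD a larger one, while the totals overlapped. The 4 members summed to 255.01 ± 6.47 FPKM in the control group and 249.9 ± 8.21 in the knockdown group (SD, n = 3; two-sided exact permutation p = 0.4). CEBPA made up 28.8, 28.1 and 27.1% of this sum in control and 22.3, 22.7 and 21.8% in knockdown libraries. CEBPD made up 49.4 to 50.3% in control and 55.1 to 57.2% in knockdown libraries. Neither pair of groups overlapped, and the differences of -5.72 and 6.14 percentage points each had a two-sided exact permutation p of 0.1, the smallest possible. The shares add up to the whole, so a fall of CEBPA by itself raises the CEBPD share. These differences are therefore not separate results, and the CEBPD level itself was not called (limma adjusted p = 0.0551). The shares of CEBPB (10.2% in both groups) and CEBPG (11.9 and 11.5%) overlapped between groups. CEBPA stood at 0.561 ± 0.0167 times CEBPD in control and 0.398 ± 0.0161 times in knockdown (SD, n = 3; exact permutation p = 0.1). These shares hold transcripts only, not protein.

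**Figure D2:**
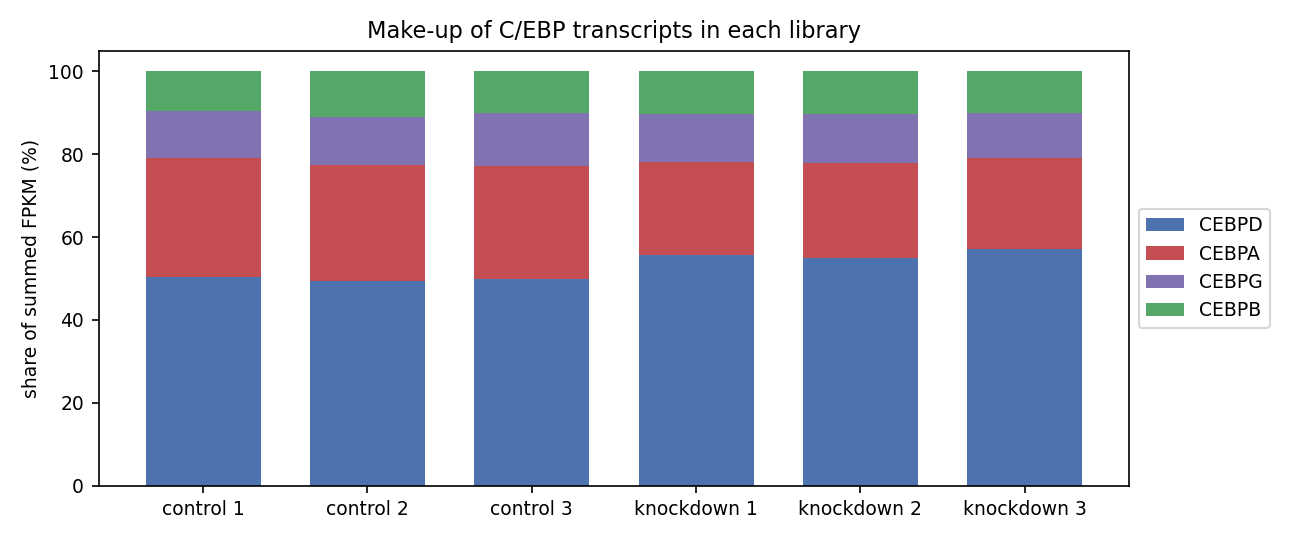
Share of the summed FPKM of the 4 C/EBP genes (vertical axis, percent) in each library. The CEBPD share is 49.4 to 50.3% in the control libraries and 55.1 to 57.2% in the knockdown libraries, and the CEBPA share is 27.1 to 28.8% and 21.8 to 22.7%.

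CEBPA, CEBPB and CEBPD share a gene structure that is rare among the genes tested. Each is annotated with 1 exon and 1 transcript, and 1.75% of 11652 protein-coding genes tested have 1 exon, whereas CEBPG has 2 transcripts of up to 2 exons. Their transcripts have a GC content of 65.9% (CEBPA), 66.2% (CEBPB) and 70.02% (CEBPD), above 97.2, 97.5 and 99.5% of genes tested. CEBPG has 43.9%, below the median of 48.4% for protein-coding genes tested. Its 3' UTR of 2994 bases is the longest of the 4 and holds 9 copies of ATTTA, the core of AU-rich elements. The 3' UTRs of CEBPA (1404 bases) and CEBPB (618 bases) hold 1 copy each, and that of CEBPD (402 bases) holds 0. At least 1 copy is present in 73.2% of protein-coding genes tested, and at least 9 in 17.0%.

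GC content moved with the comparison. Of 580 tested genes with a GC content of at least 65%, a bound chosen after the values were seen, 85 (14.7%) were higher and 7 (1.21%) lower in the knockdown, and CEBPA was 1 of the 7. With the trend on GC content and length removed, the log2 fold change of CEBPA was -0.42 (limma adjusted p = 0.000250) and that of CEBPD was 0.08 (adjusted p = 0.0598). CEBPA was thus lower with and without this correction, and the CEBPD difference was 0.08 with it and 0.14 without. The part of GC content in the CEBPD difference was not tested further.

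**Figure D3:**
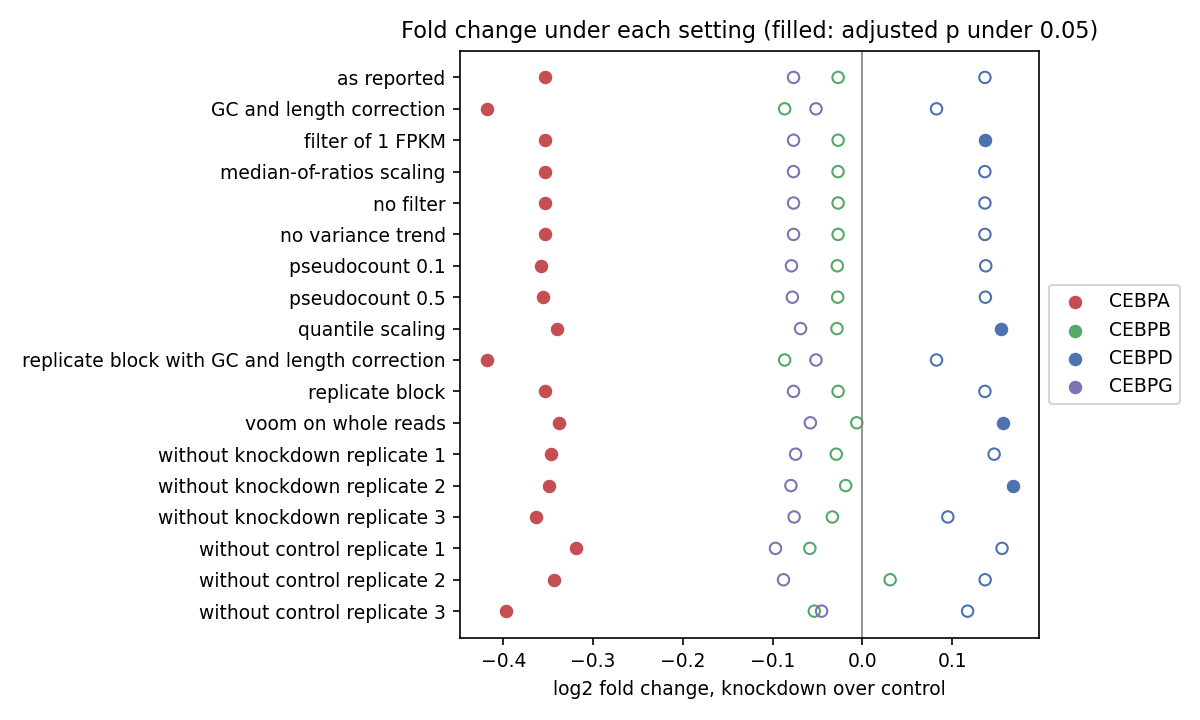
Log2 fold change (horizontal axis, knockdown over control) of the 4 C/EBP genes as reported and under 17 alternatives; filled points passed an adjusted p under 0.05. CEBPA lies between -0.42 and -0.32 and is filled throughout, and CEBPD lies between 0.08 and 0.17.

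CEBPA-DT, a noncoding transcript that leaves the shared promoter region in the other direction, was not lower in the knockdown. The annotated starts of CEBPA (chromosome 19, 33299934 to 33302564, minus strand) and CEBPA-DT (33302857 to 33305054, plus strand) lie 293 bases apart on GRCh38, and the genes do not overlap. CEBPA-DT was at 4.66, 4.72 and 5.06 FPKM in control and 6.99, 5.73 and 5.31 in knockdown libraries. All knockdown values were above the control values, with knockdown replicate 1 the highest. The log2 fold change was 0.26 (SE 0.0874) and did not pass the threshold (limma adjusted p = 0.0812), while voom on whole reads gave 0.34 and adjusted p = 0.0128. Without knockdown replicate 1 the fold change was 0.17 (limma adjusted p = 0.117), and without the other libraries in turn it was up to 0.34. It rests on 183 to 290 reads per library. The ratio of CEBPA-DT to CEBPA averaged 0.0676 ± 0.00693 for control and 0.108 ± 0.0168 for knockdown (SD, n = 3; two-sided exact permutation p = 0.1). Antisense genes overlap CEBPA (AC008738.3 and AC008738.5, both listed at 0) and CEBPB (CEBPB-AS1, 0.179 FPKM on average), and whether counting used strand is unknown.

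**Figure D4:**
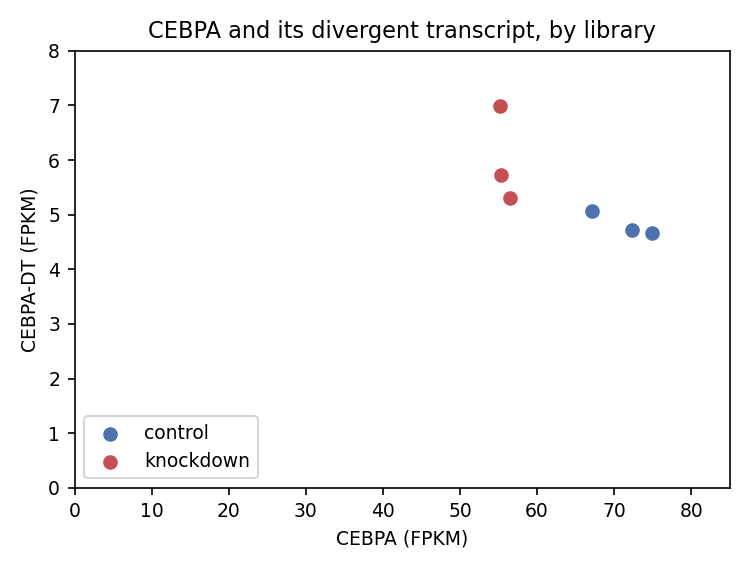
CEBPA-DT (vertical axis, FPKM) against CEBPA (horizontal axis, FPKM) in each library. The 3 knockdown libraries lie to the left of and above the 3 control libraries, with CEBPA-DT at 5.31 to 6.99 against 4.66 to 5.06.

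Of the other genes that carry the family's name or fold, DDIT3 changed. DDIT3 encodes CHOP, which pairs with C/EBPs and blocks their binding to classical sites. It rose from 9.43 ± 0.670 to 13.99 ± 1.26 FPKM (SD, n = 3), a log2 difference of 0.52 (SE 0.0722, limma adjusted p = 0.00390). Its libraries read 10.2, 9.06 and 9.02 FPKM in control and 14.3, 15.1 and 12.6 in knockdown, without overlap. DDIT3 overlaps MARS (48.9 FPKM on average) on the opposite strand, so reads of MARS and DDIT3 cannot be told apart if strand was not used in counting. CEBPE, a factor of granulocytes, was listed at 0 in all libraries. CEBPZ, which bears the name but has no leucine zipper of this kind, was at 8.82 ± 0.104 and 8.71 ± 0.648 FPKM (limma adjusted p = 0.855).

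Of 20 listed partners with a leucine zipper, 19 were tested, and 6 were higher and 2 lower in the knockdown, with a median log2 fold change of 0.11 against 0.00143 for all genes tested; with voom the list's median was 0.18. For this list and those below, limma counts stand against 8.93% higher and 10.1% lower among all genes tested. The lists were chosen with earlier results of these data known, so their counts are a description and not a test. ATF3 rose by 0.45 and JUN by 0.33 on the log2 scale, both genes of early and stress responses. JUND (0.21), HLF (0.26) and ATF7 (0.21) rose as well, and JUNB (-0.20) and CREB1 (-0.17) fell. The 8 calls of this list became 5 without knockdown replicate 1 or 2 and 4 without knockdown replicate 3 or control replicate 2. The calls of HLF and CREB1 ended when any 1 library was left out (highest adjusted p 0.0923 and 0.124). ATF4, the partner of C/EBPγ, rose from 196.6 ± 2.93 to 212.9 ± 4.70 FPKM (SD, n = 3; 0.11, limma adjusted p = 0.0137). The ATF4 call was lost with the GC and length correction (0.06, adjusted p = 0.164), and leaving out control replicate 2 or knockdown replicate 1 or 3 also ended it (highest adjusted p = 0.0531). The ATF7 call ended without control replicate 2 or any 1 knockdown replicate (highest adjusted p = 0.0619).

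Among genes that control C/EBP amount or activity, IL6ST, LIFR and OSMR fell, while IL6R, the interleukin-6 receptor chain itself, was not called (-0.12, limma adjusted p = 0.297). The list had 5 higher and 6 lower of 30 tested by limma (12 and 7 by voom), with a median log2 fold change of -0.02 that turned to 0.02 without control replicate 3. IL6ST, which encodes the shared signalling chain gp130, was at 16.5, 17.0 and 16.7 FPKM in control and 10.2, 11.3 and 11.2 in knockdown, a log2 fold change of -0.57 (SE 0.0432, limma adjusted p = 0.000430). The groups were far apart relative to the spread within them. An antisense gene that overlaps IL6ST, AC016596.1, was at 218.03 FPKM on average. Reads of AC016596.1 and IL6ST cannot be told apart if strand was not used in counting. LIFR (-0.44) and OSMR (-0.28), chains that pair with gp130, and JAK1 (-0.19), their kinase, fell too. IL1RAP, the accessory chain of the interleukin-1 receptor, fell (-0.25), while the receptor gene IL1R1 rose (0.26). STAT3, the factor below gp130, was at 14.8 ± 0.228 and 14.7 ± 0.408 FPKM (limma adjusted p = 0.773). TRIB1, whose protein brings C/EBPα to the ubiquitin ligase COP1, was at 11.4 ± 0.0931 and 10.3 ± 0.468 FPKM (adjusted p = 0.0595; 0.0236 with the GC and length correction). COP1 fell from 7.54 ± 0.0601 to 6.72 ± 0.199 FPKM (-0.15, adjusted p = 0.0289), a call that ended when any 1 library was left out (highest adjusted p = 0.0904) and with voom (0.0841). TRIB3, a relative of TRIB1 and a target of CHOP, rose (0.27). HDAC1, a corepressor found with C/EBPs, rose (0.23).

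Of 24 listed hepatocyte targets of C/EBPs, 10 were tested, with 0 higher and 1 lower by limma and a median log2 fold change of 0.08. This median was 0.0154 without control replicate 3, 0.0374 without knockdown replicate 1, 0.0444 without control replicate 2 and 0.0223 with a filter of 1 FPKM. At an unadjusted p under 0.05, 2 were higher, and voom called 3 higher. The 1 was TF, the transferrin gene (-0.09, adjusted p = 0.0248), whose call ended when any 1 library other than control replicate 1 was left out (highest adjusted p = 0.0869). ALB, the albumin gene, was at 899.4 ± 10.2 and 928.04 ± 10.3 FPKM (adjusted p = 0.104; 1.6e-06 with voom and 0.00388 with the GC and length correction, higher in both). PCK1, G6PC, GYS2 and F9, genes of glucose production, glycogen and clotting, were listed at 0 in all libraries. Acute phase targets had 0 higher and 7 lower of 13 tested, from 24 listed, with a median of -0.09; 0 were higher at an unadjusted p under 0.05 or by voom, which called 5 lower. With no filter, no variance trend or the replicate block, 4 were called by limma, and the median was -0.144 without knockdown replicate 2. The fibrinogen genes FGG (-0.30), FGB (-0.22) and FGA (-0.13), the superoxide dismutase gene SOD2 (-0.25), SAA1 (-0.47) and the complement gene C3 (-0.07) were among the lower ones. SAA1 has a near-identical copy, SAA2, so its reads are uncertain, and voom gave SAA1 an adjusted p of 0.0852. The C3 call ended without any 1 of the libraries other than control replicate 3 (highest adjusted p = 0.114). The FGA call ended with no filter and with no variance trend (highest limma adjusted p = 0.0648). It also ended with the replicate block, alone or with the GC and length correction. FGB, FGA and FGG lie on chromosome 4 between 154562956 and 154612967, and whether their falls are separate was not tested.

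Of 24 listed genes of the amino acid response, at which ATF4 binds with C/EBP partners, 22 were tested. By limma 12 were higher and 1 (VEGFA) lower, with a median log2 fold change of 0.14. This list, too, was chosen with earlier results of these data known. Among all genes tested 8.93% were higher and 10.1% lower. The list's 13 calls became 9 with no filter, 10 without control replicate 2 or 3 or knockdown replicate 3, and 16 with voom. Its median was 0.10 with the GC and length correction. NUPR1 (0.37), ATF3 (0.45), SESN2 (0.45), STC2 (0.36), DDIT3 (0.52) and TRIB3 (0.27) had the smallest adjusted p values. The VEGFA call (-0.11, limma adjusted p = 0.0397) ended when any 1 library was left out (highest adjusted p = 0.117). CEBPG, whose protein pairs with ATF4 at such sites, was not higher (-0.08). ATF3, DDIT3, TRIB3 and ATF5 stand in more than 1 of these lists.

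**Figure D5:**
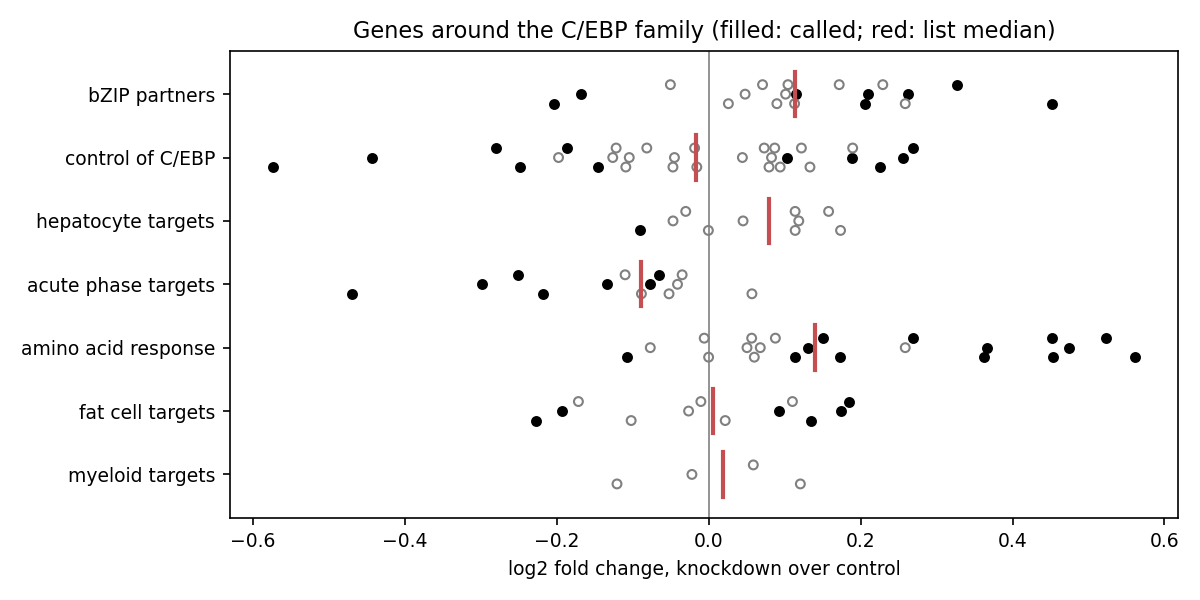
Log2 fold change (horizontal axis, knockdown over control) of each tested gene in 7 lists around the C/EBP family. The lists were chosen with earlier results of these data known. Filled points were called and red bars are list medians. Medians are -0.09 for acute phase targets, 0.08 for hepatocyte targets (0.0154 without control replicate 3) and 0.14 for amino acid response genes.

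Genes with the pattern most like each member were taken by Pearson correlation of log2(FPKM + 1) over the 6 libraries, among 10445 coding genes whose mean was 100 reads or more. The 6 points share the difference between the groups, and the values are a description. For CEBPA the closest were SPINK1 (r = 0.995), a secreted trypsin inhibitor, UQCRFS1 (0.994) and YIPF4 (0.994), and 302 genes were above 0.95. SPINK1 fell by 0.54 on the log2 scale, with means of 136.9 ± 8.44 and 93.5 ± 1.68 FPKM (SD, n = 3). For CEBPD they were TAB1 (0.996), CHMP7 (0.995) and GNL3L (0.993), with 86 genes above 0.95. For CEBPG they were CIAO2A (0.997), EPAS1 (0.994) and BRCA2 (0.991), with 88 above 0.95. For CEBPB, which did not separate the groups, RNF168 (0.967), GPC4 (0.965) and PPOX (0.956) were closest, and 4 genes were above 0.95.

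The label of liver cancer cells was checked with marker lists. All 13 hepatocyte and liver cancer markers passed the filter, with 0 higher and 2 lower by limma (TF and FGB). At an unadjusted limma p under 0.05, and by voom, 3 were higher. TF, FGB, ALB, APOB, TTR and SERPINA1 also stand in the C/EBP target lists above, so these results are not separate from those. Of 6 bile duct markers 4 were tested, with a median log2 fold change of -0.06: SOX9 was higher (0.22), and EPCAM (-0.11, limma adjusted p = 0.0522), SPP1 (-0.10) and KRT19 (-0.03) were not called. With the GC and length correction 3 of the 4 were called, and 2 with a filter of 1 FPKM or quantile scaling. None of 6 endothelial markers reached the filter, and CDH5 and CLEC4G were listed at 0. Of 8 immune markers 2 were tested, CD14 and LYZ, and the pan-leukocyte gene PTPRC was at 0.0120 and 0.0170 FPKM in control and knockdown. Summed fibroblast and stellate markers were 65.1 to 68.7 FPKM in control and 58.0 to 60.6 in knockdown libraries, mostly LUM (57.6 and 50.7), while DCN was at 0.00429 and 0.00279. LUM fell by 0.18 on the log2 scale, and by 0.09 with the GC and length correction, where its call ended once the replicate block was added (limma adjusted p = 0.0782). COL1A2 (-0.18), the other called marker of this list, lost its call when any 1 library was left out (highest adjusted p = 0.097). The part of these markers in the fall of CEBPA was not tested.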

How the data were processed

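RNA was measured in 6 Huh7 libraries (3 shcontrol, 3 shTRIM15), made with a directional kit after mRNA enrichment, per the labels' protocols. The deposited values are FPKM computed by the authors, 1 column per library, with a gene length column; the aligner, counter and strand setting are not given in the sources used here. The labels name build mm10, but all 58735 row identifiers and coordinates equal those of the human GENCODE 29 annotation on GRCh38, which is used here. Multiplied by gene length and 1 factor per library, 100% of deposited FPKM values came out as whole reads (tolerance 0.01 reads): 17715210 to 18217903 per control library and 17332508 to 19556855 per knockdown library. The squared difference between replicates was 1.91 to 2.73 times sampling noise, so no library was a copy of another.

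Genes with at least 0.5 FPKM in 3 or more libraries (14847) were fitted with limma 3.58.1 in R 4.3.3 on log2(FPKM + 1), with a variance trend and two-sided p-values adjusted by Benjamini-Hochberg across every tested gene and called below 0.05. The pseudocount of 1 understates changes of low genes. Adjusted p values come from this model unless voom is named. The procedure was tested on simulated data. Exact permutation tests used scipy 1.17.1. Replicate numbers were not used as pairs. Named genes were the members, their relatives, up to 6 called genes per list with the smallest adjusted p, others of the partner and control lists described by role, and 3 nearest genes per member. ALB, PPARG, VEGFA, the genes listed at 0, DCN, PTPRC and the neighbours of CEBPA were named after their values were seen. Members and lists were chosen with earlier results of these data known. The CEBPA-AS1 and CEBPB-DT symbols matched no row. Promoter sequences are from RefSeq (GRCh38.p14); CEBPA, CEBPB and CEBPG were matched, 3 of the 4 members. Alternatives changed the pseudocount, filter, scaling, variance trend, test, block and GC and length terms, or left out 1 library.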

Additional observations from a re-analysis of the deposited data

How the results depend on the processing

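CEBPA kept its direction and its call under all 17 alternatives (log2 fold change -0.42 to -0.32, limma adjusted p at most 0.0132), and CEBPG stayed uncalled under all 17 (-0.10 to -0.05). CEBPD kept its direction under all 17 and was called in 4 of them: with a filter of 1 FPKM (0.14, adjusted p = 0.0436), quantile scaling (0.15, 0.0366), voom on whole reads (0.16, 1.47e-05) and without knockdown replicate 2. Without 1 library it ranged from 0.10 to 0.17. CEBPB ranged from -0.059 to 0.031 without 1 library, its share of the family from -0.33 to 0.37 percentage points and that of CEBPG from -0.699 to 0.033. With the GC and length correction, with or without the replicate block, CEBPZ turned to 0.046, CEBPZOS to 0.015 and RNF168 to 0.022. Quantile scaling turned RNF168 to 0.00253 and PPOX to 0.00472. Voom turned CEBPZ to 0.00546, RNF168 to 0.0193, PPOX to 0.0184 and STAT3 to 0.00364. Without 1 library, CEBPZ ranged from -0.0697 to 0.0235, RNF168 from -0.0220 to 0.0312, PPOX from -0.0357 to 0.0543, GPC4 from -0.0962 to 0.0439 and STAT3 from -0.0283 to 0.00604; none of these genes was called. Genes called ranged from 1770 to 2339 without 1 library, which leaves fewer samples, against 2824 with all; the 3 lowest counts were without a knockdown replicate (1869, 1871 and 1770). Voom gave the highest count, 4182, with 56.4% of calls higher against 47.0%. The library sizes behind FPKM differed from summed reads by 1.04 to 1.27% in knockdown and by -0.37 to -0.36% in control. Voom did not use those sizes, and the part of this offset in its signs and calls was not tested. Deviations of same-numbered libraries from their group means correlated at 0.0125, 0.00862 and 0.0133, so numbers were not taken as pairs, although each library correlated best with its own number. The replicate block gave 1913 genes called, and 1615 together with the GC and length correction; it changed no member's call. Of 61 other named genes, 27 kept direction and side of the threshold under all 17; the cause of the other changes was not tested. SAA1 rested on 8 to 21 reads per library, and small differences such as that of CEBPG did not pass with 3 libraries a group.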

Other observations

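Fat cell genes, where C/EBPs act with PPARγ, were partly present in these liver cancer cells. Of 20 listed, 12 were tested, with 4 higher and 2 lower in the knockdown and a median log2 fold change of 0.00566. The 6 calls became 3 without knockdown replicate 3 or control replicate 2, and the median ranged from -0.0437 to 0.0602 without 1 library. SCD, the stearoyl-CoA desaturase gene, fell from 455.4 ± 5.65 to 398.3 ± 1.78 FPKM (SD, n = 3; -0.19), and PLIN2, which encodes a lipid droplet coat protein, from 45.001 ± 0.561 to 38.3 ± 0.407 FPKM (-0.23). SREBF1, the gene of a lipid synthesis factor, rose (0.17), as did INSIG1 (0.13), whose call ended without control replicate 2 or knockdown replicate 3 (highest limma adjusted p = 0.0553). The call of LPIN1 (0.18) ended without any 1 library (highest adjusted p = 0.120), and that of FASN (0.09) without any 1 other than control replicate 1 (highest adjusted p = 0.116). PPARG was at 9.60 ± 0.391 and 8.41 ± 0.548 FPKM (limma adjusted p = 0.0604; 0.0329 without knockdown replicate 1 and 0.0214 with voom). ADIPOQ, LEP and CIDEA were listed at 0 in all libraries. Of 14 myeloid targets 4 were tested, and 0 were called by limma, by voom or at an unadjusted p under 0.05.

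CEBPA and CEBPG are neighbours on chromosome 19, with annotated starts 70766 bases apart, but their changes differed in size (-0.35 and -0.08 on the log2 scale; the difference was not tested). Of the 12 tested genes within 500000 bases of the pair, themselves included, CEBPA was the 1 lower gene by limma, and 2 were higher. Among all genes tested 10.1% were lower and 8.93% higher, so 1 lower gene of 12 is near the share of all genes. PEPD, the prolidase gene, rose from 36.2 ± 0.856 to 38.8 ± 0.401 FPKM (SD, n = 3; limma adjusted p = 0.0358) and FAAP24, a DNA repair gene, from 6.21 ± 0.355 to 7.09 ± 0.136 FPKM (0.0451). Each of these 2 calls ended without control replicate 2 or 3 or any 1 knockdown replicate (highest adjusted p 0.112 and 0.123).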
